A study of Mus musculus with 13 samples.

Results

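Liver RNA of alcohol-fed mice whose hepatocytes overexpressed acid ceramidase was compared with liver RNA of alcohol-fed littermates that lacked the transgene, with doxycycline (Dox) in the diet of both groups. The mice were selected by the names of the columns in the count table, which give 5 ASAH+ Etoh-Dox mice and 4 ASAH- Etoh-Dox mice, 9 of the 13 mice of the series. For ASAH+ mice, the sample titles state the reverse Dox treatment, and the level of Asah1 per mouse, given below with the endoplasmic reticulum genes, went with the column names. All mice were female, 8 to 14 weeks old, and homozygous for both an Albumin-Cre and a Rosa26-loxP-stop-loxP-rtTA allele. ASAH- mice lacked TRE-ASAH1, the transgene of ASAH+ mice, whose expression took both Dox at 200 mg per litre and the Albumin-Cre of hepatocytes. Both groups drew 28% of their calories from ethanol over 4 weeks. The remaining 4 mice, ASAH+ on ethanol without Dox (Etoh), are given as values beside the comparison and were not part of it. The comparison asks which genes other than the transgene differ when genetics, and not diet, is the control.

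Acid ceramidase splits ceramide into sphingosine and a fatty acid in the lysosome. Hepatocytes make most plasma proteins, which are folded in the endoplasmic reticulum by chaperones before export, while sinusoidal endothelial cells, Kupffer cells (resident macrophages) and stellate cells (vitamin A storing pericytes) line the sinusoids and are called non-parenchymal. In bulk liver RNA, fewer cells of a type and less RNA per cell cannot be told apart.

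Poly(A) RNA was sequenced from each mouse alone, and the table holds estimated counts per gene. Totals ran from 22000529 counts in ASAH- replicate 1 to 35358711 in ASAH+ replicate 1, with 26254612 in ASAH- replicate 2, 24909341 in ASAH- replicate 3 and 27844993 in ASAH- replicate 4. ASAH+ replicates 2 to 5 had 26316303, 28107945, 24435195 and 23226459 counts. Levels are given as CPM (counts per 1000000 counts of the library, after TMM scaling), and fold changes are log2, ASAH+ minus ASAH-. edgeR's quasi-likelihood test was fitted to all 13 mice, and a gene was called at an adjusted p under 0.1. Of 14317 genes tested, 2 were called (0.014%), Asah1 and Sod1. An unadjusted p under 0.05 was reached by 184 genes with higher values in ASAH+ mice (1.29%) and by 225 with lower values (1.57%). This split moved with the mice, to 359 higher and 245 lower without ASAH- replicate 1, 139 and 248 without ASAH- replicate 2, 156 and 163 without ASAH- replicate 3, and 349 and 373 without ASAH- replicate 4. It was 235 and 259, 297 and 328, 235 and 217, 117 and 206, and 151 and 151 without ASAH+ replicates 1 to 5 in turn, 206 and 191 with Asah1 left out, and 412 and 383 with no count filter. Counts of list members without a mouse, given below, stand beside these numbers for all genes. The median log2 fold change over all genes was -0.0023, and its median size without regard to sign was 0.0998. Only 31 genes with a mean above 1 CPM had a log2 fold change beyond 1 in size, so most differences described below are small. Over all genes, an unadjusted p under 0.05 and groups that do not overlap were both rarer than chance alone gives. The shares are given below with the consistency from mouse to mouse. DESeq2 called 11 genes on all 13 mice and 11 on the 9 mice, of which 10 were shared, and both edgeR calls were among these.

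The tissue carried the markers of hepatocytes. Each of the 15 hepatocyte markers listed had enough counts to be tested, and Alb, the gene of albumin, had the highest level per length of all genes tested, 38761 CPM per kilobase of exon. The summed level of these markers was 91861, 114356, 128835, 116933 and 121897 CPM in ASAH+ replicates 1 to 5, and 129180, 123924, 143368 and 130483 CPM in ASAH- replicates 1 to 4. Albumin accounted for 74.2% of that sum. ASAH+ replicate 1 had the lowest sum. The median log2 fold change of the list was -0.17, and 2 of its 15 genes, Apoc3 and Apoa1, had an unadjusted p under 0.05 with lower values in ASAH+ mice, beside 1.57% of all genes.

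**Figure D1:**
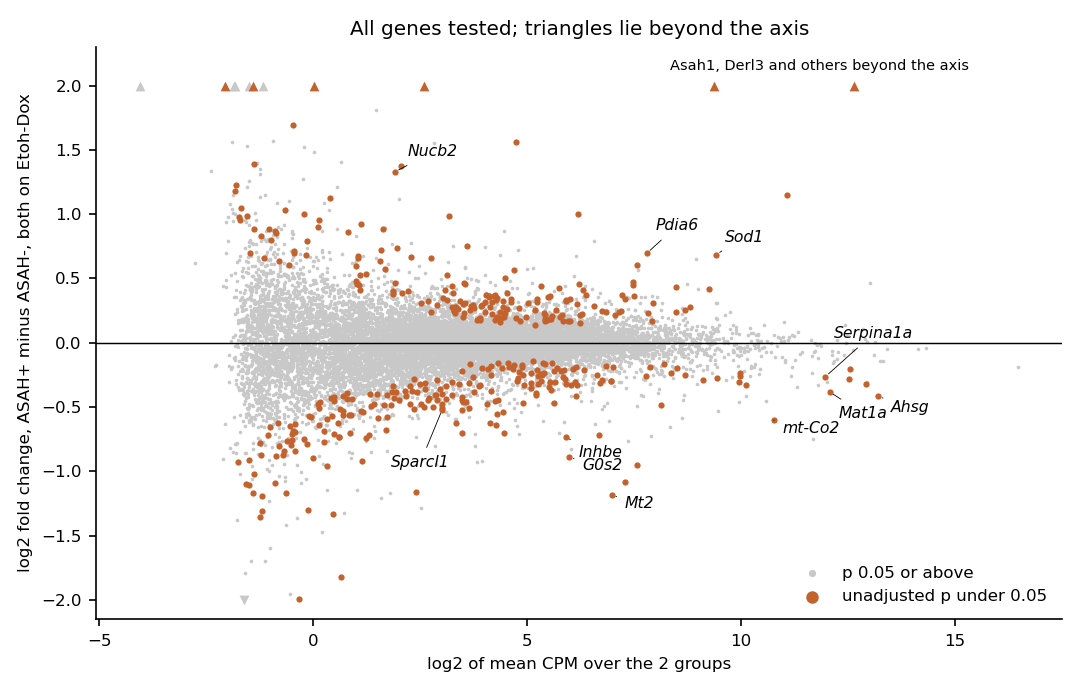
Log2 fold change of each of the 14317 genes tested (ASAH+ minus ASAH-, both on Etoh-Dox) against the log2 of the mean CPM of the groups; orange points have an unadjusted p under 0.05 and triangles lie beyond the axis. Ahsg, at -0.42, sits below the line at the right.

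Of the protease inhibitors and fetuins, Ahsg had the highest level per length. Ahsg (ENSMUSG00000022868, chromosome 16, 22891277 to 22899449, GRCm38) encodes fetuin-A, a plasma glycoprotein that binds calcium phosphate and inhibits the insulin receptor kinase. Its level was 7071, 7732, 8951, 7834 and 9060 CPM in ASAH+ replicates 1 to 5, and 9902, 10896, 11637 and 11016 CPM in ASAH- replicates 1 to 4. All ASAH+ mice lay below all ASAH- mice, and the gene had rank 18 of the genes tested in CPM per kilobase. The means were 8130 ± 852 (SD, n = 5) and 10863 ± 718 CPM (SD, n = 4), which is a log2 fold change of -0.42 (standard error 0.0861). edgeR did not call it (adjusted p = 0.99), while DESeq2 did on all 13 mice (adjusted p = 0.0132, lower than the ASAH- mean in 5 of 5 ASAH+ mice) and on the 9 mice (adjusted p = 0.0706). Over all 23 alternatives its adjusted p ran from 0.0132 to 1 and its log2 fold change from -0.46 to -0.37. ASAH+ mice without Dox had 9168 to 9974 CPM, above all ASAH+ mice on Dox and reaching the lowest ASAH- mouse.

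The alpha-1 antitrypsins, serpins that inhibit neutrophil elastase, are a gene cluster in mice, and salmon divides reads among near-identical members, so the split between them is uncertain. Serpina1a had 3373, 3546, 3895, 3756 and 3736 CPM in ASAH+ mice and 4235, 4603, 4097 and 4649 CPM in ASAH- mice. Serpina1b had 5557, 5655, 5520, 5486 and 5699 CPM in ASAH+ mice and 6510, 6803, 6425 and 6008 CPM in ASAH- mice. For both genes the mice of the groups did not overlap. Their log2 fold changes were -0.26 (standard error 0.0706) and -0.21 (standard error 0.0711), with edgeR's adjusted p = 1 for each, and all 5 ASAH+ mice lay below the ASAH- mean. DESeq2 on all 13 mice called Serpina1a (adjusted p = 0.0815), and over the 23 alternatives its adjusted p ran from 0.0815 to 1. Summed over Serpina1a to Serpina1e, a quantity that the split among the members does not change, ASAH+ mice had 16632, 16629, 17833, 17166 and 17259 CPM and ASAH- mice had 20046, 19876, 18368 and 19569 CPM. The sums did not overlap either, and all 5 members had a log2 fold change below 0. ASAH+ mice without Dox had 4109 to 4333 CPM of Serpina1a and 5978 to 6997 CPM of Serpina1b, above the ASAH+ mice on Dox. Serpina1c, Serpina1d and Serpina1e had no unadjusted p under 0.05. Serpina1b to Serpina1e were chosen after their values were seen.

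Among the 17 protease inhibitors and fetuins tested, 3 had an unadjusted p under 0.05 (Ahsg, Serpina1a and Serpina1b), all lower, against 1.57% of all genes. The median log2 fold change of the list was -0.15, with 16 of 17 genes below 0. Leaving out each mouse in turn moved that median between -0.21 and -0.11, and the count was 5 without ASAH+ replicate 3 or ASAH- replicate 3. In other classes of secreted proteins, the complement proteins had a median of 0.01 (26 tested), the acute phase proteins 0.02 (20 tested), the coagulation and fibrinolysis proteins -0.03 (22 tested), the plasma carriers -0.05 (14 tested) and the major urinary proteins -0.08 (19 tested). The median of the acute phase proteins was -0.08 without ASAH+ replicate 3 and 0.05 without ASAH+ replicate 5. That of the urinary proteins was 0.36 without ASAH- replicate 4 and -0.25 without ASAH- replicate 3. In these lists 1 gene had higher and 3 had lower values with an unadjusted p under 0.05, beside 1.29% and 1.57% of all genes. Mbl2, the mannose-binding lectin, was the higher one, at 507, 357, 472, 490 and 428 CPM in ASAH+ mice and 417, 410, 360 and 325 CPM in ASAH- mice, and the groups overlapped. The lower ones were Serpina3n, Hrg and Mt2, and all overlapped between the groups. Chemokines and cytokines had a median of -0.19 with 0 of 20 genes at an unadjusted p under 0.05 by edgeR, and -0.07 without ASAH- replicate 3.

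Hepatokines and growth factors had a median of -0.15 over 32 genes tested, with 3 genes lower at an unadjusted p under 0.05 (1.57% of all genes) and 0 higher. Without ASAH- replicate 1 the median was -0.05, and 2 genes were then higher and 6 lower. The lower genes numbered 5 without ASAH+ replicate 1 and 6 without ASAH- replicate 4. Sparcl1, a secreted matrix glycoprotein of the SPARC family, had 5.83, 6.95, 6.87, 7.22 and 6.42 CPM in ASAH+ mice and 8.67, 9.21, 11.2 and 9.08 CPM in ASAH- mice. Those groups did not overlap, and the log2 fold change was -0.52 (standard error 0.1099). DESeq2 called it on all 13 mice (adjusted p = 0.0367, lower in 5 of 5 ASAH+ mice), while edgeR did not (adjusted p = 0.99), and over the 23 alternatives the adjusted p ran from 0.0367 to 1. Lect2, a hepatokine tied to muscle insulin response, had 118, 120, 122, 91.9 and 106 CPM in ASAH+ mice and 135, 157, 131 and 125 CPM in ASAH- mice, again without overlap, with a log2 fold change of -0.30. Without Dox, ASAH+ mice had 7.89 to 9.77 CPM of Sparcl1 and 120 to 133 CPM of Lect2. Inhbe, which encodes the activin E subunit, had 58.3, 53.0, 42.0, 31.2 and 39.7 CPM in ASAH+ mice and 52.7, 85.5, 90.9 and 70.1 CPM in ASAH- mice. Its log2 fold change was -0.74, the groups overlapped through ASAH- replicate 1, and 2 of 20 pairs of mice went the other way. Fgf21 and Gdf15, hormones of hepatic stress, overlapped between the groups, at 1.77 to 4.81 CPM against 2.43 to 6.65 CPM for Fgf21, and 0.612 to 6.80 CPM against 0.393 to 5.79 CPM for Gdf15. Inhbe, Fgf21 and Gdf15 were chosen after their values were seen.

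**Figure D2:**
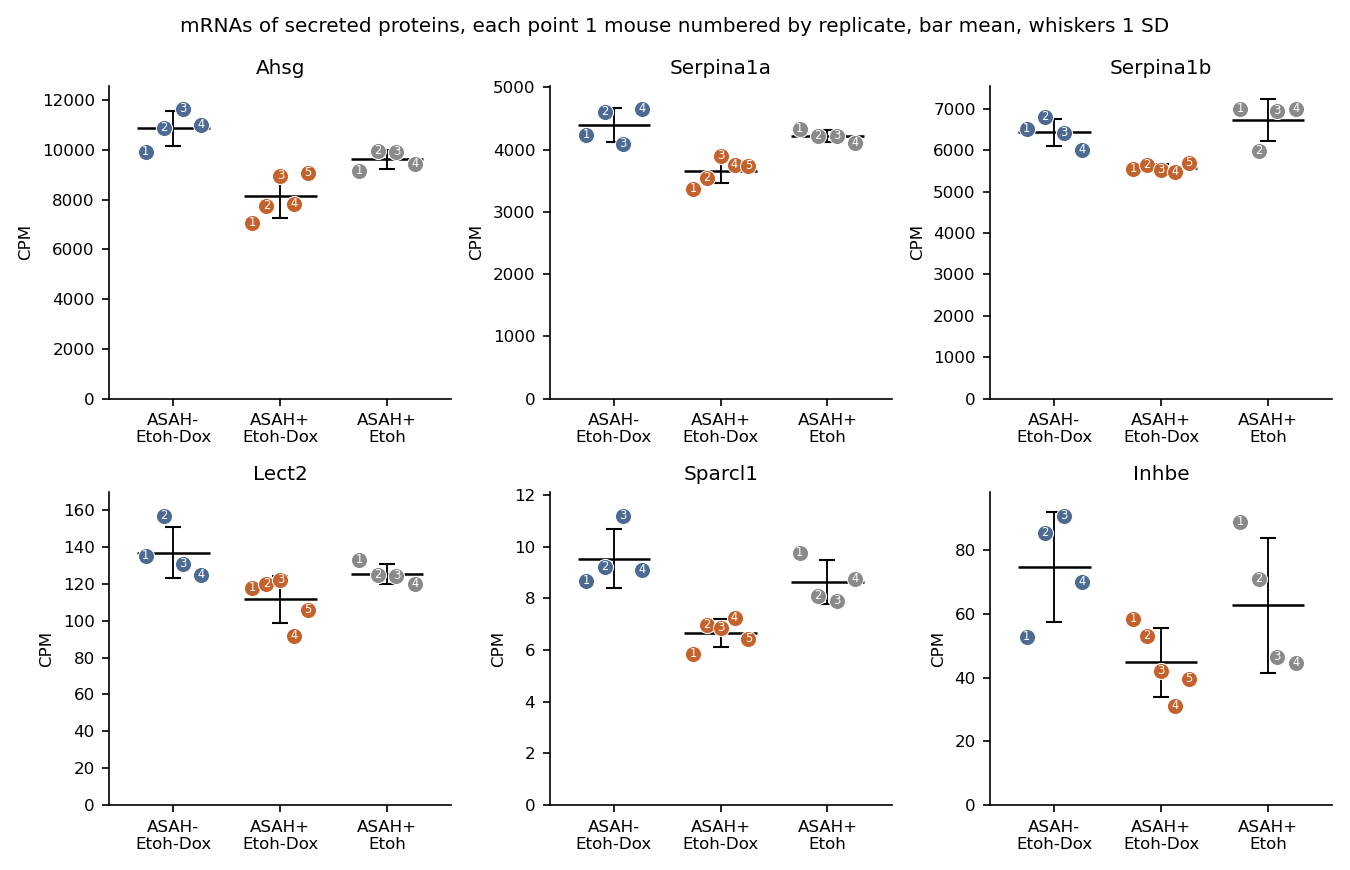
CPM of 6 mRNAs of secreted proteins in each mouse, numbered by replicate, with the mean (bar) and 1 SD (whiskers) of each group. Ahsg, Serpina1a, Serpina1b, Lect2 and Sparcl1 have all ASAH+ Etoh-Dox mice below all ASAH- Etoh-Dox mice, and Inhbe overlaps.

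Of the non-parenchymal lists, the sinusoidal endothelial markers had the most genes below 0. Of 32 genes tested, 11 had an unadjusted p under 0.05 with lower values in ASAH+ mice (1.57% for all genes) and 0 with higher values (1.29% for all genes), and 31 had a log2 fold change below 0. The median was -0.33 beside -0.0023 for all genes. The summed level was 596, 572, 483, 703 and 643 CPM in ASAH+ replicates 1 to 5, 715, 591, 953 and 728 CPM in ASAH- replicates 1 to 4, and 874, 614, 777 and 860 CPM in ASAH+ mice without Dox. The sums overlapped, since ASAH- replicate 2 lay within the ASAH+ range, and ASAH- replicate 3 was the highest of the 9 mice. Without ASAH- replicate 3 the median was -0.19 and 1 of 32 genes had an unadjusted p under 0.05. The count was also 6 without ASAH+ replicate 1, 5 without ASAH+ replicate 2, 5 without ASAH+ replicate 3 and 18 without ASAH- replicate 2. Aqp1, a water channel, was the most abundant member at 26.5 CPM per kilobase and made up 10.4% of the sum, and no member lacked counts in the 9 mice.

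Pecam1, an adhesion protein of endothelial junctions, had the smallest p of these markers, with 13.5, 15.7, 11.1, 15.8 and 13.9 CPM in ASAH+ mice and 17.3, 16.8, 26.6 and 17.4 CPM in ASAH- mice. The groups did not overlap, and ASAH- replicate 3 stood far above the rest of its group. The log2 fold change was -0.48 (standard error 0.1543), and it ran from -0.55 to -0.29 over the 23 alternatives. Without Dox, Pecam1 was at 15.1 to 21.2 CPM. Tek, the angiopoietin receptor, had 7.44 to 9.07 CPM in ASAH+ mice and 8.17 to 13.5 CPM in ASAH- mice. Clec4g, a lectin of sinusoidal endothelium, had 27.4 to 35.1 CPM against 32.3 to 59.9 CPM. Stab2, a scavenger receptor that defines the same cells, had 30.4 to 38.1 CPM against 26.4 to 59.7 CPM, with only ASAH- replicate 3 above the ASAH+ mice. Tek, Clec4g and Stab2 were chosen after their values were seen.

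Stellate cell and fibroblast markers had a median of -0.22 over 32 genes tested, with 30 of them below 0, and 6 with an unadjusted p under 0.05, all lower (1.57% for all genes). Their sum was 744, 758, 709, 744 and 631 CPM in ASAH+ mice and 782, 779, 991 and 805 CPM in ASAH- mice, so the sums did not overlap. In ASAH+ mice without Dox it was 746, 627, 667 and 794 CPM. Without ASAH- replicate 3 the median was -0.09 and 1 gene had an unadjusted p under 0.05. That number was 3 without ASAH+ replicate 1 and 2 without ASAH+ replicate 5. Ecm1, a secreted protein that restrains latent TGF-beta, was the most abundant member, at 50.8 CPM per kilobase and 16.6% of the sum. Reln, the secreted glycoprotein reelin, had 35.0, 42.1, 43.1, 46.3 and 39.0 CPM in ASAH+ mice and 52.5, 51.8, 55.1 and 53.2 CPM in ASAH- mice. The groups did not overlap, and the ASAH- mice lay close together. Its log2 fold change was -0.37 (standard error 0.0874), edgeR's adjusted p = 1, and over the 23 alternatives the adjusted p ran from 0.128 to 1. ASAH+ mice without Dox, at 41.3 to 50.4 CPM, lay below the ASAH- mice as well. Lrat, the retinol acyltransferase that defines quiescent stellate cells, had 18.5 to 30.3 CPM in ASAH+ and 21.8 to 29.9 CPM in ASAH- mice, and was chosen after its values were seen.

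Kupffer cell and macrophage markers had a median of -0.23 over 29 genes tested, with 0 at an unadjusted p under 0.05 by edgeR. Their sum split the ASAH+ group, with 1237 and 1248 CPM in replicates 1 and 2 and 655, 965 and 643 CPM in replicates 3 to 5. ASAH+ mice without Dox had 663 to 828 CPM, below all ASAH- mice. ASAH- mice had 878, 896, 1658 and 1087 CPM, replicate 3 being the highest again. Without that mouse the median was 0.02, and without ASAH+ replicate 2 it was -0.37. Cd5l, a secreted scavenger protein of macrophages, was the most abundant member at 74.6 CPM per kilobase and 14.8% of the sum. Clec4f, which defines Kupffer cells, had 147, 149, 84.9, 106 and 84.6 CPM in ASAH+ mice and 121, 111, 183 and 146 CPM in ASAH- mice. ASAH- replicate 3 thus had the highest sums of endothelial, stellate and Kupffer markers together, and its part in the lower values of the ASAH+ group is given above as the values without it.

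Red cell markers had a median of -0.31 with 7 of 7 genes tested below 0, but it was 0.47 without ASAH- replicate 3 and -0.56 without ASAH- replicate 4. Their sum was 692, 244, 881, 357 and 650 CPM in ASAH+ mice and 232, 757, 1723 and 218 CPM in ASAH- mice, with Hbb-bs, a beta globin, as the most abundant member. ASAH+ mice without Dox had 137 to 193 CPM, below all mice on Dox. ASAH+ replicate 2 was apart for antigen-presenting and lymphoid genes. The sum of the dendritic cell and MHC class II markers was 290 CPM in that mouse and 92.3 to 127 CPM in the other ASAH+ mice, against 134 to 159 CPM in ASAH- mice. T cell and NK cell markers summed to 25.5 CPM in it and to 11.7 to 13.8 CPM in the other ASAH+ mice. B cell and plasma cell markers summed to 46.0 CPM in it, against 19.2 to 30.9 CPM in the others. These sums lay at 11.1 to 15.3 CPM for T and NK cells and at 24.9 to 29.4 CPM for B and plasma cells in ASAH- mice. Dendritic cell and MHC class II markers summed to 87.2 to 115 CPM in ASAH+ mice without Dox, below all ASAH- mice. Neutrophil markers reached 2.73 to 5.83 CPM in sum in ASAH+ mice and 2.78 to 7.10 CPM in ASAH- mice, and only 4 of 14 had enough counts to be tested. Of cholangiocyte markers 13 of 16 were tested, with a median of -0.14 (-0.01 without ASAH- replicate 1 and -0.36 without ASAH- replicate 4), and Krt19, which defines those cells, had at most 1.83 CPM and was chosen after its values were seen. Of 16 markers of fat, pancreas and mesothelium, 4 were tested, and Lep, Cpa1 and Pnlip had no count in the 9 mice.

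**Figure D3:**
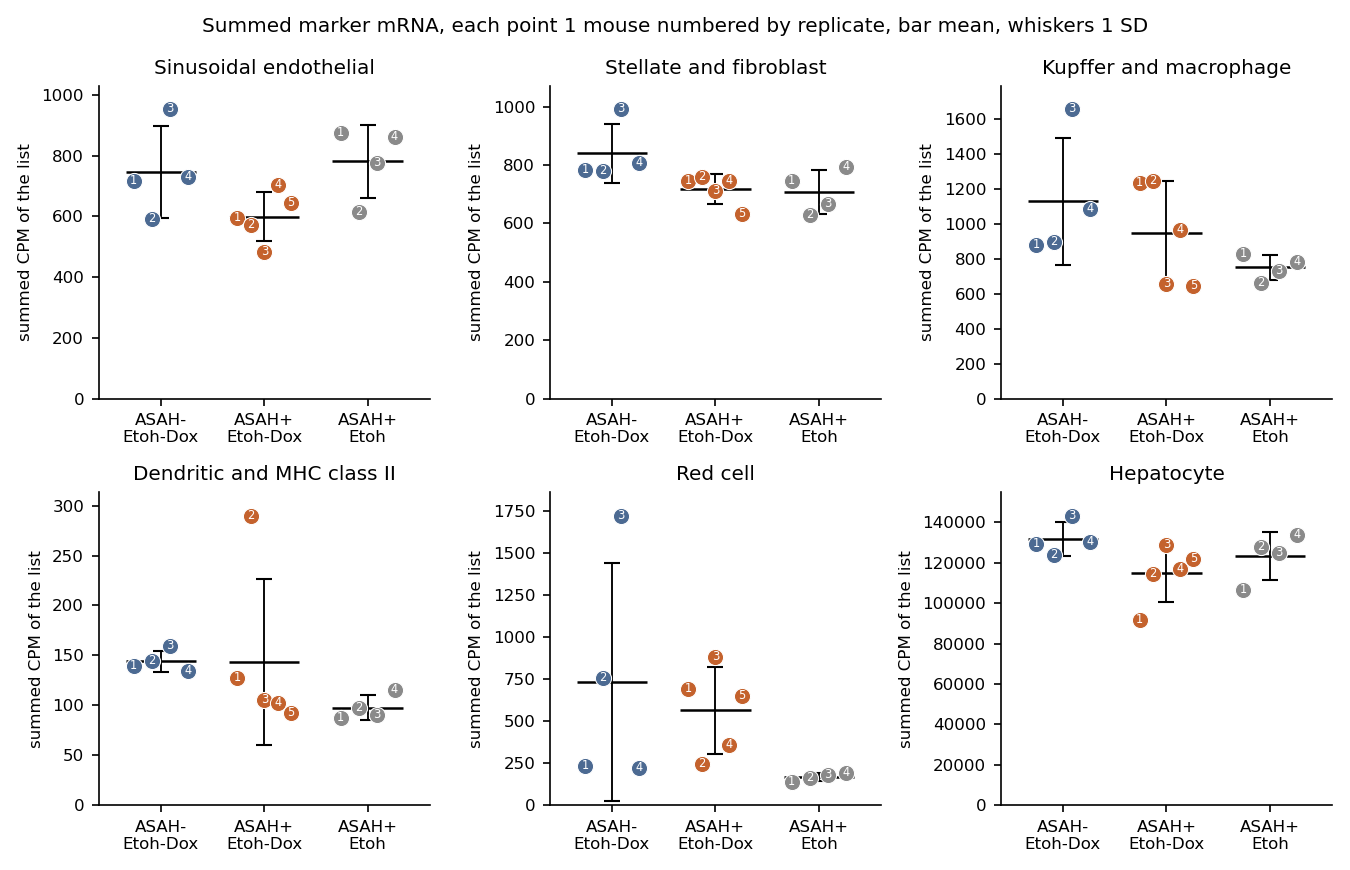
Summed CPM of 6 marker lists in each mouse, numbered by replicate, with the mean (bar) and 1 SD (whiskers) of each group. ASAH- Etoh-Dox replicate 3 is the highest of its group for all 6 sums, and ASAH+ Etoh-Dox replicate 2 is the highest for MHC class II at 290 CPM.

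Among pathway lists, chaperones and folding enzymes of the endoplasmic reticulum had the highest median. Of 30 tested, 8 had an unadjusted p under 0.05 with higher values in ASAH+ mice (1.29% for all genes) and 0 with lower values, with a median log2 fold change of 0.16. The 8 were Pdia6, Sdf2l1, Dnajc3, Calr, Pdia3, Ero1lb, Pdia4 and Canx, all but Pdia6 named after their values were seen. Pdia6, a disulfide isomerase, had 199, 181, 397, 279 and 325 CPM in ASAH+ mice and 202, 186, 128 and 167 CPM in ASAH- mice. Replicates 3, 4 and 5 of the ASAH+ group were high, and replicates 1 and 2 lay within the ASAH- range. Without Dox, ASAH+ mice had 143 to 197 CPM. The log2 fold change was 0.70 (standard error 0.2152), the exact two-sided permutation p = 0.0714, and edgeR's adjusted p = 1. Calr, the lectin chaperone calreticulin, had 641, 469, 946, 748 and 688 CPM in ASAH+ mice and 664, 557, 423 and 449 CPM in ASAH- mice. Without Dox, Calr was at 502 to 643 CPM. The sum of the list was 5844, 5063, 7591, 7097 and 6596 CPM in ASAH+ mice and 6698, 5358, 4590 and 4804 CPM in ASAH- mice. It was 6667, 5254, 5507 and 5393 CPM in ASAH+ mice without Dox, which overlaps both groups. P4hb, another disulfide isomerase, had the highest level per length, 521 CPM per kilobase. The count of 8 was 1 without ASAH+ replicate 3, without ASAH+ replicate 4 or without ASAH- replicate 3, and it was 2 without ASAH- replicate 4, 3 without ASAH- replicate 2, 4 without ASAH+ replicate 5 and 15 without ASAH- replicate 1, the mouse without which the higher genes among all genes rose from 184 to 359. The median ran from 0.13 without ASAH- replicate 4 to 0.24 without ASAH- replicate 1, and 1 gene was lower without ASAH+ replicate 2 or ASAH- replicate 2.

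Hspa5, the main chaperone of that compartment, was chosen after its values were seen and did not separate the groups. It had 462, 356, 703, 759 and 662 CPM in ASAH+ mice and 811, 317, 360 and 278 CPM in ASAH- mice. ASAH+ mice without Dox had 329 to 601 CPM. The highest value of all was in ASAH- replicate 1. Hyou1, Manf and Creld2 had their highest ASAH- value in the same mouse, at 183, 56.8 and 25.0 CPM, while the other ASAH- mice had at most 67.9, 23.6 and 11.8 CPM. Nucb2, a calcium-binding protein of the Golgi, was the gene of its list of 43 traffic genes with the smallest p (chromosome 7, 116504369 to 116540584, GRCm38). It had 2.88, 3.10, 7.45, 5.46 and 8.11 CPM in ASAH+ mice and 2.37, 1.70, 2.49 and 2.00 CPM in ASAH- mice. The groups did not overlap, but replicates 1 and 2 of the ASAH+ group lay just above the ASAH- mice, and ASAH+ mice without Dox had 1.55 to 2.40 CPM. Its log2 fold change was 1.33 (standard error 0.3039), and DESeq2 called it on all 13 mice (adjusted p = 0.0367, higher in 5 of 5 ASAH+ mice) and edgeR did not (adjusted p = 1, range over the 23 alternatives 0.0367 to 1). The counts behind it were 44 to 61 per ASAH- mouse and 86 to 206 per ASAH+ mouse. Sel1l, the membrane adaptor of the Hrd1 ubiquitin ligase, had 167, 153, 195, 183 and 185 CPM in ASAH+ mice and 161, 130, 125 and 141 CPM in ASAH- mice. The log2 fold change was 0.34 (standard error 0.092), with 19 of 20 pairs of mice higher in ASAH+ and edgeR's adjusted p = 1. Sel1l in ASAH+ mice without Dox was at 159 to 172 CPM, which overlaps both groups. Sel1l was chosen after its values were seen. The list of 35 genes of degradation from the endoplasmic reticulum had a median of 0.07 and 3 genes with an unadjusted p under 0.05, all higher (1.29% for all genes), with Derl3 and H13 beside Sel1l. Derl3, a derlin of the channel that returns misfolded proteins to the cytosol, had 1.60, 0.648, 25.6, 13.6 and 16.3 CPM in ASAH+ mice and 0.32, 1.12, 0.0816 and 0.644 CPM in ASAH- mice. Its high values were in ASAH+ replicates 3 to 5, and replicate 2 lay within the ASAH- range. DESeq2 called Derl3 on all 13 mice (adjusted p = 0.021, log2 fold change 4.42, higher than the ASAH- mean in 5 of 5 ASAH+ mice) and on the 9 mice (adjusted p = 0.0705), edgeR did not (adjusted p = 1), and the range over the 23 alternatives was 0.021 to 1. The count was 5 without ASAH+ replicate 2 or ASAH- replicate 4, and 7 without ASAH- replicate 1. The ER-Golgi traffic genes had a median of -0.01, the signal peptide and translocon genes -0.01 and the ATF4 targets -0.03. Without ASAH- replicate 1 these were 0.06, 0.12 and 0.06, and the ATF4 targets had -0.12 without ASAH+ replicate 1.

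Promoters are shown for Hspa5, Calr, Pdia6 and Derl3, chosen because they hold a sequence known from such genes and were higher in ASAH+ replicates 3 to 5 than in replicates 1 and 2. The endoplasmic reticulum stress element, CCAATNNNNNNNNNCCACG, was searched on both strands of the RefSeq promoters (250 bases before to 50 after the start, GRCm38.p6). It was in 39 of 32851 promoters (0.119%), in those of 37 of 27025 genes (0.137%), and in those of 7 of 25 chaperone genes with a promoter (28%), which were Calr, Canx, Creld2, Dnajc3, Hsp90b1, Hspa5 and Pdia6. The same order of the ASAH+ replicates held for Pdia3, Pdia4 and Sdf2l1, whose promoters have no match in this window. Of 25 degradation genes with a promoter, 2 held it (8%), Derl3 and Syvn1. Capitals below mark the match, which begins 65 bases before the start in Hspa5 (chr2:34771840-34772139, plus strand), 162 in Calr (chr8:84846882-84847181, minus strand), 98 in Pdia6 (chr12:17266339-17266638, plus strand) and 156 in Derl3 (chr10:75893148-75893447, plus strand). In Calr and Derl3 the match lies on the opposite strand. A match is a description, not a site or a cause.
Hspa5: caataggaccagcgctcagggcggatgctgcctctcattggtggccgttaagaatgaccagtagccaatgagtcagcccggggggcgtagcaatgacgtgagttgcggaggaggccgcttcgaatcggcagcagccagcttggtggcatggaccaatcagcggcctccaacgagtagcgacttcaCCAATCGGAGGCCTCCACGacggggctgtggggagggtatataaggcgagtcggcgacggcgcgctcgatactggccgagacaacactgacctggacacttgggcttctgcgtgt
Calr: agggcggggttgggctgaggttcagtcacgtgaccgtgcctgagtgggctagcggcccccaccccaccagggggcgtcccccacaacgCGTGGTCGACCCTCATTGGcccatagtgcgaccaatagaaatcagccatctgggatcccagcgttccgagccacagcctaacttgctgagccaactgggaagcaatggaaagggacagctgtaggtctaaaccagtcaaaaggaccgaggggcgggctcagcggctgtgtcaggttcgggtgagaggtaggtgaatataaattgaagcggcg
Pdia6: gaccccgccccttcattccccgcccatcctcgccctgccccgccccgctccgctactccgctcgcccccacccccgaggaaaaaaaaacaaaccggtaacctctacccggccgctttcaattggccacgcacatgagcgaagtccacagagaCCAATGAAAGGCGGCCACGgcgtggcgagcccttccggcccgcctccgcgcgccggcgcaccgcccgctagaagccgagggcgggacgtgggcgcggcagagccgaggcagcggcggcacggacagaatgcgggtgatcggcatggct
Derl3: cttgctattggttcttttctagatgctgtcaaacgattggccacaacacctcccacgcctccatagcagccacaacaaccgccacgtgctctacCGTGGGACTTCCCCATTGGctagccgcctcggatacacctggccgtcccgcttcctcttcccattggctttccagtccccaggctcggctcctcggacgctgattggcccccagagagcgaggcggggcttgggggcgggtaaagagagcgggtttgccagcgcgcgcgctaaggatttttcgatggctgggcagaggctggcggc

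Other values moved with the mice that were high for the chaperones. Asah1 had 10314, 9668, 15134, 12725 and 15935 CPM in ASAH+ replicates 1 to 5, or 1.03, 0.967, 1.51, 1.27 and 1.59 percent of counts, so replicates 3, 4 and 5 had the most of it as well. In ASAH- mice Asah1 was at 40.0 to 55.0 CPM, and in ASAH+ mice without Dox at 44.2 to 48.3 CPM. Csad, a decarboxylase of taurine synthesis chosen after its values were seen, split the ASAH+ group the same way, at 17.4 and 13.4 CPM in replicates 1 and 2 and at 50.3 CPM or more in replicates 3 to 5, beside 10.3 to 18.2 CPM in ASAH- mice, but was also at 51.8 CPM in replicate 2 of the mice without Dox. The log2 ratio of Dbp to Arntl, clock genes of opposite phase, was 6.64, 6.78, -1.64, 0.15 and 2.70 in ASAH+ mice and -0.96, 6.49, 1.81 and 6.11 in ASAH- mice. ASAH+ replicates 3, 4 and 5 and ASAH- replicates 1 and 3 thus had the low ratios. Hspa5 and the chaperones above were high in ASAH- replicate 1, and Pdia6 and Calr were lowest in ASAH- replicate 3. Without Dox the ratio was 4.45, 6.06, 5.05 and 1.60. When that ratio entered the edgeR fit, an alternative added once the data had been seen, the count of higher chaperones was 9, with a median of 0.14, and that of lower endothelial markers 11, beside 260 higher and 279 lower among all genes. That fit compares the groups and does not measure what part clock phase had in the values of single mice. Kupffer markers were lower in ASAH+ replicates 3 to 5 than in replicates 1 and 2. What part clock phase, the amount of Asah1 or the Kupffer markers had in the chaperone values was not tested. Core clock genes themselves had a median of 0.13 over 19 tested, with 0 at an unadjusted p under 0.05 by edgeR, and the median was -0.04 without ASAH- replicate 1 and 0.24 without ASAH+ replicate 3.

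**Figure D4:**
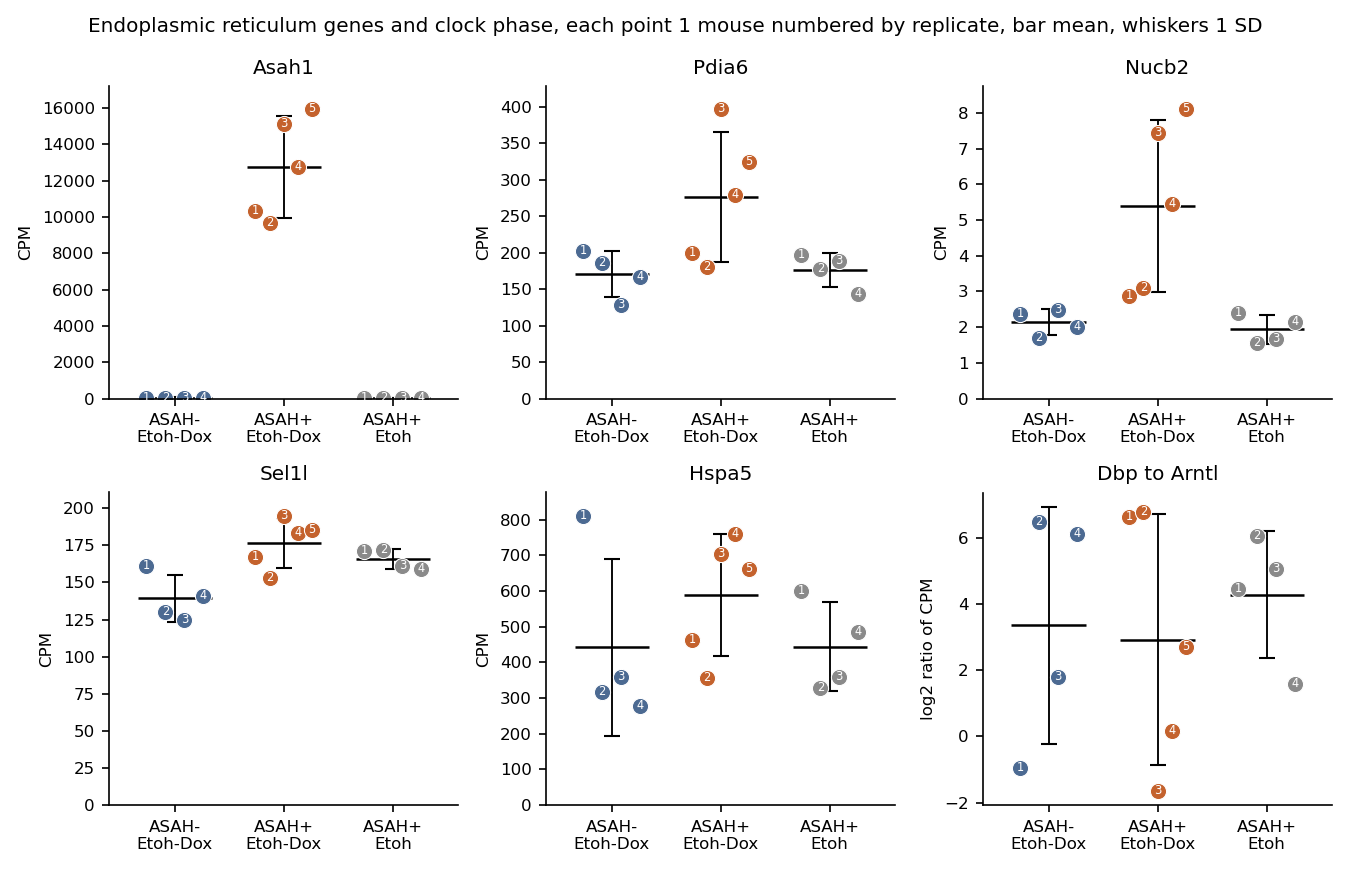
CPM of Asah1, Pdia6, Nucb2, Sel1l and Hspa5, and the log2 ratio of Dbp to Arntl, in each mouse, numbered by replicate, with the mean (bar) and 1 SD (whiskers) of each group. ASAH+ Etoh-Dox replicates 3, 4 and 5 are high for Asah1 and the endoplasmic reticulum genes, and ASAH- Etoh-Dox replicate 1 has the highest Hspa5 at 811 CPM.

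Interferon-stimulated genes had a median of -0.22 over 43 tested, with 39 below 0 and 5 with an unadjusted p under 0.05, all lower (Oasl1, Rsad2, Ifit1, Mx1 and Irf9), beside 1.57% of all genes. Leaving out each mouse in turn moved that median between -0.32 (without ASAH+ replicate 1) and -0.11 (without ASAH+ replicate 5), and it was -0.14 without ASAH- replicate 4. Oasl1, of the antiviral oligoadenylate synthetase family, had 11.6, 7.78, 11.6, 6.66 and 4.95 CPM in ASAH+ mice and 18.3, 14.3, 10.7 and 12.6 CPM in ASAH- mice. The groups overlapped through ASAH- replicate 3, and ASAH+ mice without Dox, at 6.40 to 7.94 CPM, lay within the range of the ASAH+ mice on Dox and below all ASAH- mice. Rsad2, the antiviral enzyme viperin, had 10.6 to 21.3 CPM against 17.6 to 35.8 CPM. ASAH+ replicates 4 and 5 had the lowest sums of the list, 1111 and 1061 CPM, beside 1515 to 1616 CPM in replicates 1 to 3 and 1173 to 1824 CPM in ASAH- mice. The count of 5 was 14 without ASAH+ replicate 1, 10 without ASAH- replicate 3, 1 without ASAH- replicate 1, 2 without ASAH+ replicate 4 or 5, and 3 without ASAH+ replicate 3 or ASAH- replicate 4. Genes of MHC class I presentation, many of which interferon induces, had a median of 0.04 over 19 tested with 0 at an unadjusted p under 0.05 by edgeR, and -0.06 without ASAH+ replicate 1. Rsad2, Ifit1, Mx1 and Irf9 were chosen after their values were seen.

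Metallothioneins varied widely within groups. Mt2, which binds zinc and copper, had 134, 95.9, 62.0, 41.0 and 54.0 CPM in ASAH+ mice and 190, 221, 236 and 58.1 CPM in ASAH- mice. ASAH- replicate 4 was low like the ASAH+ mice, and 3 of 20 pairs went the other way, and the log2 fold change was -1.19 (standard error 0.5061). Its list of 17 metallothioneins and metal transporters had a median of -0.03 and 3 genes lower at an unadjusted p under 0.05 (1.57% for all genes), Mt2, Mt1 and Slc39a5. Mt1 had 212, 180, 95.7, 66.8 and 89.3 CPM in ASAH+ mice and 203, 346, 316 and 131 CPM in ASAH- mice, a log2 fold change of -0.95 with overlap. Slc39a5, a zinc transporter, had at most 0.481 CPM in ASAH+ mice and 0.0715 to 1.23 CPM in ASAH- mice. Mt1 and Slc39a5 were chosen after their values were seen. Of the 13 mitochondrially encoded mRNAs, 3 had an unadjusted p under 0.05, all lower (1.57% for all genes), and the median was -0.05. They summed to 66762 to 73376 CPM in ASAH+ mice and 71447 to 77600 CPM in ASAH- mice. mt-Co2, a subunit of cytochrome oxidase chosen after its values were seen, had 1653, 1189, 1195, 1307 and 1586 CPM in ASAH+ mice and 2753, 1814, 2572 and 1279 CPM in ASAH- mice. Gm28437, an unprocessed pseudogene on chromosome 1, went the other way, with 2455, 3048, 3408, 3161 and 2711 CPM in ASAH+ mice and 804, 1543, 548 and 2446 CPM in ASAH- mice. The mouse with the least mt-Co2 in the ASAH- group, replicate 4, had the most Gm28437. Summed, they reached 4107, 4238, 4603, 4468 and 4297 CPM in ASAH+ mice and 3557, 3357, 3120 and 3725 CPM in ASAH- mice. Whether salmon divided shared reads between them was not tested. The 76 nuclear subunits of oxidative phosphorylation had a median of -0.05 and 0 genes with an unadjusted p under 0.05 by edgeR.

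Metabolic lists had medians from -0.20 to 0.05. The 49 genes of amino acids, methionine and the urea cycle had a median of -0.10, with 40 below 0 and 2 lower at an unadjusted p under 0.05 (1.57% for all genes). Mat1a, which makes S-adenosylmethionine in hepatocytes, had 3573, 4036, 3753, 3819 and 3532 CPM in ASAH+ mice and 5398, 4970, 5202 and 3951 CPM in ASAH- mice. Only ASAH- replicate 4 lay among the ASAH+ mice, below the highest of them. The log2 fold change was -0.38 (standard error 0.1159, edgeR's adjusted p = 1), and ASAH+ mice without Dox had 4299 to 6326 CPM. Pericentral hepatocyte genes had a median of -0.20 over 23 tested with 21 below 0 and 1, Gulo, lower at an unadjusted p under 0.05 (1.57% for all genes). The pericentral genes summed to 14241, 14796, 13588, 12992 and 13952 CPM in ASAH+ mice and 15182, 17908, 15560 and 18733 CPM in ASAH- mice. In ASAH+ mice without Dox the sum was 16012 to 17831 CPM, and the sums of the groups on Dox did not overlap. Cyp2e1, the ethanol-oxidizing cytochrome, was 51.5% of the sum. Without ASAH- replicate 2 the median was -0.05. Periportal genes had a median of -0.05 over 26. Medians were -0.05 for 46 drug-metabolizing cytochromes, 0.05 for 15 genes of alcohol and acetaldehyde metabolism, -0.04 for bile acid genes and -0.01 for glucose and insulin response genes. For protein and organelle turnover they were 0.00 for 33 proteasome subunits, 0.01 for 40 autophagy genes, -0.01 for 49 lysosomal genes and -0.05 for 79 cytosolic ribosomal proteins. NRF2 targets had 0.00, peroxide and superoxide scavengers -0.02, cytosolic heat shock proteins -0.02, immediate early genes -0.07, cell cycle genes -0.06, and iron and BMP targets -0.10. Without ASAH- replicate 3 these were 0.10 for NRF2 targets, 0.12 for immediate early genes, 0.11 for cell cycle genes and -0.02 for iron and BMP targets. NRF2 targets had -0.15 without ASAH+ replicate 1. Immediate early genes had -0.17 without ASAH- replicate 4, and cell cycle genes had -0.14 without ASAH- replicate 1. Leaving out each mouse in turn moved the median of periportal genes between -0.13 and 0.02, of cytochromes between -0.12 and -0.03, of lysosomal genes between -0.08 and 0.04, of scavengers between -0.08 and 0.05, and of heat shock proteins between -0.09 and 0.02. Basement membrane genes had -0.20 over 21 tested, with Col4a5 (2.25 to 2.99 CPM against 3.00 to 5.16, no overlap) and Nid1 (13.9 to 18.0 CPM against 16.1 to 36.3) lower at an unadjusted p under 0.05 (1.57% for all genes) and Nid2 higher with overlap (1.29%). Nid1 was chosen after its values were seen. Without ASAH- replicate 3 the median of that list was -0.04.

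**Figure D5:**
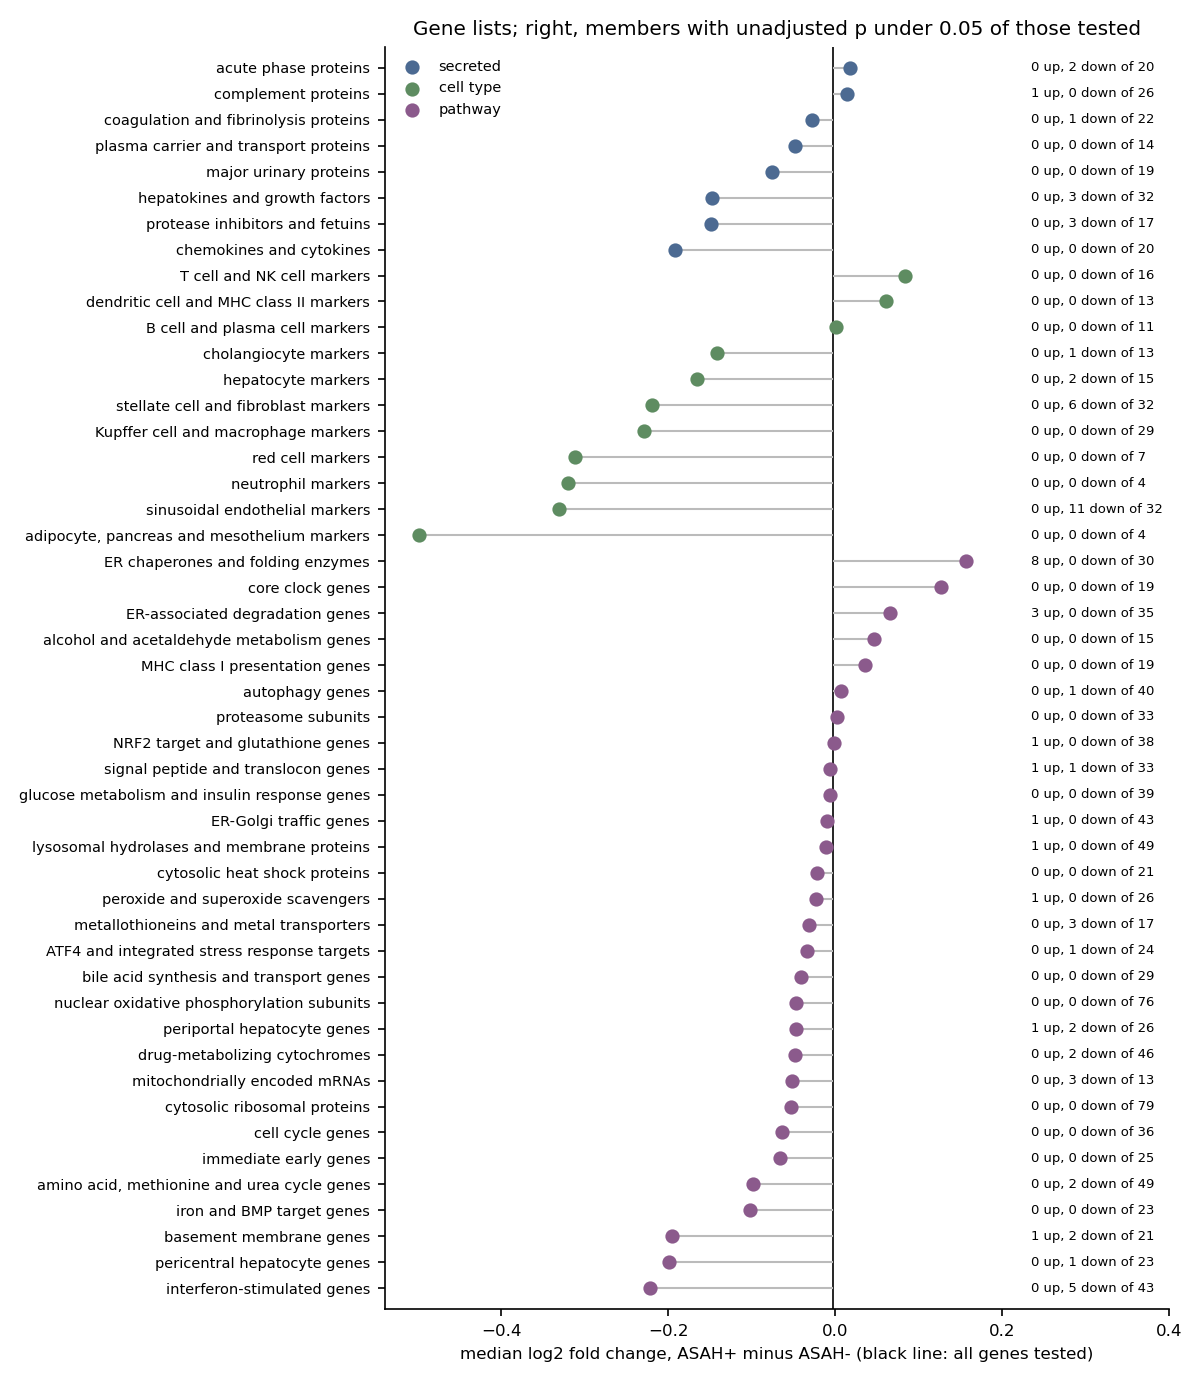
Median log2 fold change (ASAH+ minus ASAH-, both on Etoh-Dox) of 48 gene lists beside that of all genes tested (black line), with the number of members at an unadjusted p under 0.05 in each direction. Chaperones of the endoplasmic reticulum have the highest pathway median, 0.16, and endothelial markers have 11 lower genes of 32.

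Consistency from mouse to mouse was described over all genes. Of 409 genes with an unadjusted p under 0.05 (2.86%), 351 had all 5 ASAH+ mice on one side of the ASAH- mean, and 92 had groups that did not overlap. These genes were selected by p on the same mice, which favours both patterns, so neither number measures consistency. How many of all genes had the 5 mice on one side was not counted. Over all genes tested, 127 had groups that did not overlap (0.887%), 63 of them higher (0.44%) and 64 lower (0.447%). A random division of the 9 mice into 5 and 4 separates a gene in a given direction with probability 0.00794. Each direction thus held fewer genes than chance alone gives. The 409 genes (2.86%) were also fewer than the share of 0.05 that chance gives at an unadjusted p under 0.05. Groups that do not overlap are therefore no sign, taken alone, that a gene differed. Since genes are named here for not overlapping, their direction in each mouse is no sign of stability. Higher protein-coding genes named by that rule included Mapk8ip3, a kinesin adaptor (14.1 to 15.3 CPM in ASAH+ mice against 11 to 12.4 CPM in ASAH- mice). Also included were Kif16b, an endosomal kinesin (21.6 to 22.9 against 18.0 to 20.3 CPM), Fam210a, a mitochondrial protein (83.2 to 106 against 64.8 to 82.7 CPM), and Rfx7, a transcription factor (15.4 to 17.4 against 11.8 to 14.8 CPM). Their log2 fold changes were 0.30, 0.24, 0.37 and 0.29. Mindy2, a deubiquitinase, had 18.3 to 21.9 against 15.5 to 17.1 CPM. Without Dox, ASAH+ mice had 79.3 to 105 CPM of Fam210a, 15.7 to 21.3 CPM of Mindy2 and 14.1 to 16.4 CPM of Rfx7, which overlap the ASAH+ mice on Dox. Kif16b had 19.6 to 21.6 CPM in them, up to the lowest value on Dox, and Mapk8ip3 had 11.1 to 12.9 CPM, below the ASAH+ mice on Dox. Lower ones included Rdh5, a retinol dehydrogenase, at 10.6, 12.5, 9.87, 9.27 and 9.59 CPM in ASAH+ mice and 14.9, 15.8, 13.9 and 14.6 CPM in ASAH- mice. ASAH+ mice without Dox had 8.85 to 11.4 CPM, which overlaps the ASAH+ mice on Dox and not the ASAH- mice. Lamc3, a laminin chain, had 2.10 to 3.28 CPM against 3.47 to 4.66 CPM, and 3.54 to 5.06 CPM without Dox. DESeq2 called Rdh5 on all 13 mice (adjusted p = 0.0367, log2 fold change -0.51, lower in 5 of 5 ASAH+ mice), and over the 23 alternatives its adjusted p ran from 0.0367 to 1.

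The long noncoding RNAs Gm47761 and Gm42047, chosen after their values were seen, were called by DESeq2 and not by edgeR. Gm47761 had 12, 10.8, 10.5, 15.2 and 11.2 CPM in ASAH+ mice and 4.79, 8.02, 6.69 and 4.65 CPM in ASAH- mice. Gm42047 had 97.3, 85.4, 83.9, 129 and 90.8 CPM in ASAH+ mice and 38.3, 69.3, 49.6 and 36.8 CPM in ASAH- mice. Neither overlapped between the groups, with log2 fold changes of 0.98 and 1.00. ASAH+ mice without Dox had 5.15 to 10.3 CPM of Gm47761, below all ASAH+ mice on Dox and overlapping the ASAH- mice, and 39.6 to 96.8 CPM of Gm42047, which overlaps both groups. Their adjusted p ran from 0.00289 to 1 and from 0.0054 to 1 over the 23 alternatives. Within groups, the median distance of a mouse from the mean of the other mice of its group, in log2 without sign, was 0.20, 0.20, 0.20, 0.17 and 0.17 in ASAH+ replicates 1 to 5 and 0.20, 0.18, 0.19 and 0.23 in ASAH- replicates 1 to 4. ASAH- replicate 4 was thus the farthest from its group. Without ASAH- replicate 4, 722 genes had an unadjusted p under 0.05 in place of 409, and without ASAH+ replicate 2 the number was 625.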

How the data were processed

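The deposited values are expected counts per gene (estimated counts), which the authors obtained by mapping single-end reads with salmon to GENCODE transcripts on GRCm38.p6 and summing transcripts within genes in tximport. The table has 53392 genes, is not scaled for library size, and 100% of its values are whole numbers. GENCODE M21 supplied gene names, exons and coordinates and held 53355 of the identifiers.

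The fit used edgeR 4.0.16 in R 4.3.3 (filterByExpr with 3 groups, 14317 genes, TMM, robust quasi-likelihood, 13 mice). Adjustment was by Benjamini-Hochberg over every gene tested, with a threshold of 0.1. An exact two-sided permutation test of the 9 mice on log2 CPM (prior count 2) was run for named genes, and 0.00794 is the smallest p it can give. Depth was 22000529 to 35358711 counts in the 9 mice, with 5 and 4 replicates, and counting error is a lower bound of technical error. The pipeline was tested on simulated data.

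The lists (48, with 1249 genes tested) were described by counts, medians and sums without a test. Members and lists were chosen with earlier results of these data known. A rule named Asah1, the genes called, the 10 higher and 10 lower protein-coding genes of smallest p whose groups did not overlap at a mean log2 CPM over 1, and for each list its most abundant member and its smallest p in each direction. The text gives those that help a reader. The result of 1 gene is not reported here. Genes named otherwise were chosen after their values were seen, and these also include Apoa1, Sparc, Hyou1, Manf, Creld2, Dbp, Arntl, H13, Hsp90b1, Syvn1, Hamp, Gm28437 and Gm10925.

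Alternatives were DESeq2 1.42.0 on 13 and on 9 mice, edgeR on 9 mice, DESeq2's size factors, no count filter, a mean of at least 1 CPM, Asah1 left out, limma-voom (limma 3.58.1), the replicate number as a block, and each of 13 mice left out. A fit with clock phase (log2 Dbp to Arntl) as a covariate was chosen after seeing the data. The human samples of the study were not used.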

Additional observations from a re-analysis of the deposited data

Results flagged for a closer look

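In groups of 4 or 5 mice, a value was set apart when its gap to the nearest other mouse, divided by the range of the group, passed Dixon's 95% critical value. Of 312 groups examined, 26 values were apart, 18 for genes and 8 for sums of lists, and chance sets apart about 1 in 20 groups.

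ASAH+ replicate 2 held several of them. It was high for Cd74 (132 CPM), Myc (14 CPM), Igkc (14.8 CPM), Jchain (4.86 CPM) and Hamp (344 CPM), and low for G0s2 (26.2 CPM). Its sums were high for T and NK cell markers (25.5 CPM) and for dendritic and MHC class II markers (290 CPM), and low for coagulation and fibrinolysis proteins (14130 CPM). ASAH+ replicate 1 was high in sum for NRF2 target and glutathione genes (17069 CPM) and for MHC class I presentation genes (6902 CPM). ASAH+ replicate 4 was high for Stab2 (38.1 CPM) and Slc39a5 (0.481 CPM).

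ASAH- replicate 3 was high for Pecam1 (26.6 CPM), Sparc (80.8 CPM) and Stab2 (59.7 CPM), and in sum for stellate cell and fibroblast markers (991 CPM) and plasma carrier proteins (174725 CPM). ASAH- replicate 1 was high for Canx (399 CPM), Hspa5 (811 CPM), Hyou1 (183 CPM), Creld2 (25.0 CPM) and Igkc (9.18 CPM), and in sum for ER-Golgi traffic genes (5122 CPM). ASAH- replicate 2 was high for Rarres2 (416 CPM), and ASAH- replicate 4 for Serpina1e (56.9 CPM).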

How the results depend on the processing

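The number of genes called was 2, and it was 11 with DESeq2 on all 13 mice, 11 with DESeq2 on the 9 mice, 1 with edgeR on the 9 mice, 1 with Asah1 left out, and 1 to 2 when each mouse was left out, with 1 without ASAH- replicate 1, 3 or 4. Sod1 was the gene lost without each of these mice (adjusted p = 0.155, 0.169 and 0.137 by edgeR, log2 fold change 0.68, 0.65 and 0.67, higher in 5 of 5 ASAH+ mice) and with edgeR on the 9 mice (adjusted p = 0.226), over a range of 1.27e-09 to 1. Replicate numbers belong to different mice, and the deviations of same-numbered mice had a mean correlation of -0.133 over 4 pairs. With the replicate block 1 gene was called and 156 had an unadjusted p under 0.05. That number was 409, 795 with no count filter, and 302 to 722 when each mouse was left out, with 625 without ASAH+ replicate 2 and 722 without ASAH- replicate 4. Genes whose groups do not overlap numbered 127, 198 with no count filter, and 124 to 127 without 1 of the 4 mice not compared. They numbered 187 to 599 without 1 of the 9 mice compared, with 599 without ASAH- replicate 4. With fewer mice compared, fewer values can overlap, so a rise without any of the 9 is built in. The cause of the other shifts was not tested.

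Of 1470 values of 64 named genes under alternatives, 1449 kept their direction and side of the threshold, 16 of 9 genes passed it with DESeq2, 5 of Sod1 no longer passed it and 0 reversed. Of 1104 list medians under alternatives, 6 in 5 lists moved by more than 1 SD between mice: hepatokines, fat, pancreas and mesothelium, translocon and cytochrome genes without ASAH- replicate 1 (-0.05, 0.12, 0.12 and -0.12), cytochromes without ASAH+ replicate 1 (-0.10), and basement membrane genes without ASAH- replicate 3 (-0.04). All values are mRNA of whole liver from female mice on ethanol, and no ethanol-free mice, secreted protein or sorted cells were in the table. Split reads make single members of the Serpina1, Mup, Cyp and globin families uncertain.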
